A study of Mus musculus with 8 samples.

Results

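The genes Rpl3 and Rpl3l, Rpl7 and Rpl7l1, and Rpl22 and Rpl22l1 form 3 pairs of ribosomal protein paralogues, and their RNA was followed in white gastrocnemius, the part of this calf muscle with mainly fast fibres. The 6 genes were found among the 20972 genes named on the array, through the accession that the scanner files give for each probe, and were read by 10 probes. Rpl3 was selected on its measured ratio of mutant over wild type, which lay above 0, and the other genes were chosen as its muscle paralogue or as further pairs of this kind. The ratio of mutant over wild type is therefore given for all of them as a description, with no test. The mice were homozygous for a Pus1 mutation (4 animals) or wild type (4 animals), were 14 to 16 weeks old, and had been backcrossed for 5 generations to C57BL/6J. The gene Pus1 encodes a pseudouridine synthase of tRNA. Each of 4 arrays of the 2-colour type compared a mutant with a wild type mouse of its own sex, which gave 4 pairs, of which pairs 1 and 2 were male and pairs 3 and 4 female. Cy5 labelled the mutant in pairs 1 and 3 and Cy3 did so in pairs 2 and 4.

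The large ribosomal subunit holds 1 copy of each of its core proteins, and most of these are made from a single active gene in all tissues. Rpl3 is a core protein near the peptidyl transferase centre, and Rpl3l is its counterpart in skeletal and heart muscle. In mouse muscle, overload growth is known to raise Rpl3 and lower Rpl3l. Rpl22 is an RNA-binding protein at the surface of the large subunit, and Rpl22l1 can take its place. In mice, Rpl22 protein is known to bind the Rpl22l1 transcript and to hold its level down. Rpl7 is a core protein of the large subunit, whereas Rpl7l1 is related to a yeast factor of large subunit assembly.

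Promoters were at hand for 4 of the 6 genes, and those of Rpl22l1 and Rpl3l are shown because Rpl22l1 had the highest ratio of mutant over wild type of the 6 genes and Rpl3l is the copy that muscle uses. Both are RefSeq sequences of assembly GRCm38.p6, from 120 bases before to 10 bases after the annotated start, in the direction of transcription. Rpl22l1 lies at chr3:28805388-28805517, plus strand, and Rpl3l at chr17:24727706-24727835, plus strand. Capitals mark TATAAA or its reverse complement in the first and CAGCTG in the second, both searched on both strands.
Rpl22l1: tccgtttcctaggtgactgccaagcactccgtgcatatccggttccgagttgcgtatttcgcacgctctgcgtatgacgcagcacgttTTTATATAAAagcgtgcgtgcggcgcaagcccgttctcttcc
Rpl3l: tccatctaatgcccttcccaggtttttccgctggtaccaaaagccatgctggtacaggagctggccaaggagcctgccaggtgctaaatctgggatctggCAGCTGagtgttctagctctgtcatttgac
TATAAA, the core of the TATA box, began 28 bases before the start of Rpl22l1, and its reverse complement overlapped it, beginning 32 bases before the start. It occurs in 6.65% of 32851 promoter windows of this length. CAGCTG, one of the E-box sequences that muscle transcription factors of the MyoD family are known to bind, began 20 bases before the start of Rpl3l and occurs in 7.34% of the windows. The match is a description of the letters, and binding was not measured here.

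Values are normalized log2 intensities, in which 1 unit is a 2-fold difference, and each probe is compared only with itself across animals. The share of spots well above background was 38.0% to 46.5% per sample. The 10 probes of the 6 genes were well above background in 8 of 8 samples and saturated in none, each on 1 spot. A probe was tested where at least 4 of the 8 samples were well above background, which left 23098 probes. The probe of Pus1 was well above background in 0 of 4 mutants and in 4 of 4 wild type animals, and was lower in mutants by at least 2.76-fold. The bound takes, per array, the higher of the probe's own signal and the dimmest signal well above background, and here the own signal was the higher one. The sources used here do not say whether that probe lies in the altered stretch of the gene. No probe of the array passed an adjusted p of 0.05 for mutant over wild type (0% of 23098 in limma, with 774 probes or 3.35% at an unadjusted p under 0.05, and 4 probes past the threshold with lmscFit). A separate sample of each animal is given by the labels, and in whole muscle RNA fewer cells of a type and less RNA per cell cannot be told apart.

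Rpl3, on chromosome 15, was higher in the mutant of each of the 4 pairs. Its log2 intensity was 11.81, 11.71, 12.16 and 12.47 in mutants 1 to 4, against 11.56, 11.36, 12.03 and 11.72 in wild type animals 1 to 4. The lowest mutants were the 2 males and lay below the highest wild type female, so the groups overlapped. Within each sex both mutants lay above both wild type animals, and the share of all tested probes with such a split was not counted. The log2 ratio was 0.25, 0.35, 0.13 and 0.75 in pairs 1 to 4. The fitted log2 ratio was 0.37 (SE 0.11, n = 4 pairs, 95% interval 0.10 to 0.63), a fold of 1.29, and 1.05% of the tested probes had a higher one. Pair 4, in which the mutant carried Cy3, had the widest gap, and without it the fitted log2 ratio was 0.27.

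Rpl3l, on chromosome 17, had a different pattern. Its log2 intensity was 14.51, 14.21, 14.21 and 14.34 in mutants 1 to 4, against 14.36, 14.42, 14.37 and 14.44 in wild type animals 1 to 4. The wild type animals lay within a narrow band, while mutant 1 was above it and the other 3 mutants below it. The fitted log2 ratio was −0.08 (SE 0.10, 95% interval −0.33 to 0.17), with values of 0.16, −0.21, −0.16 and −0.10 in pairs 1 to 4. Of the tested probes, 75.6% had a higher ratio than Rpl3l.

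The difference of the 2 log2 ratios, Rpl3 minus Rpl3l, was 0.09, 0.56, 0.29 and 0.85 in pairs 1 to 4 (mean 0.45 ± 0.33, SD, n = 4 pairs). It was above 0 in 4 of 4 pairs. As measured, it was smallest in pair 1, where both genes were higher in the mutant, and largest in pair 4. This and the later differences of paralogues keep the dye effect of each probe. With that effect removed, the log2 ratios in pairs 1 to 4 were 0.43, 0.17, 0.31 and 0.57 for Rpl3. For Rpl3l they were 0.08, −0.13, −0.24 and −0.02, so the order of the pairs depended in part on dye. Once the group mean and the dye effect were taken away, the correlation of Rpl3 with Rpl3l across the 8 animals was near 0 and did not pass the test (Pearson r = 0.0025, exact permutation p = 0.998; Spearman rho 0.45, exact permutation p = 0.413). Without the 2 animals farthest from the median of Rpl3, r was −0.44. Differences of sex and array were not taken away from this or the later correlations of paralogues.

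**Figure D1:**
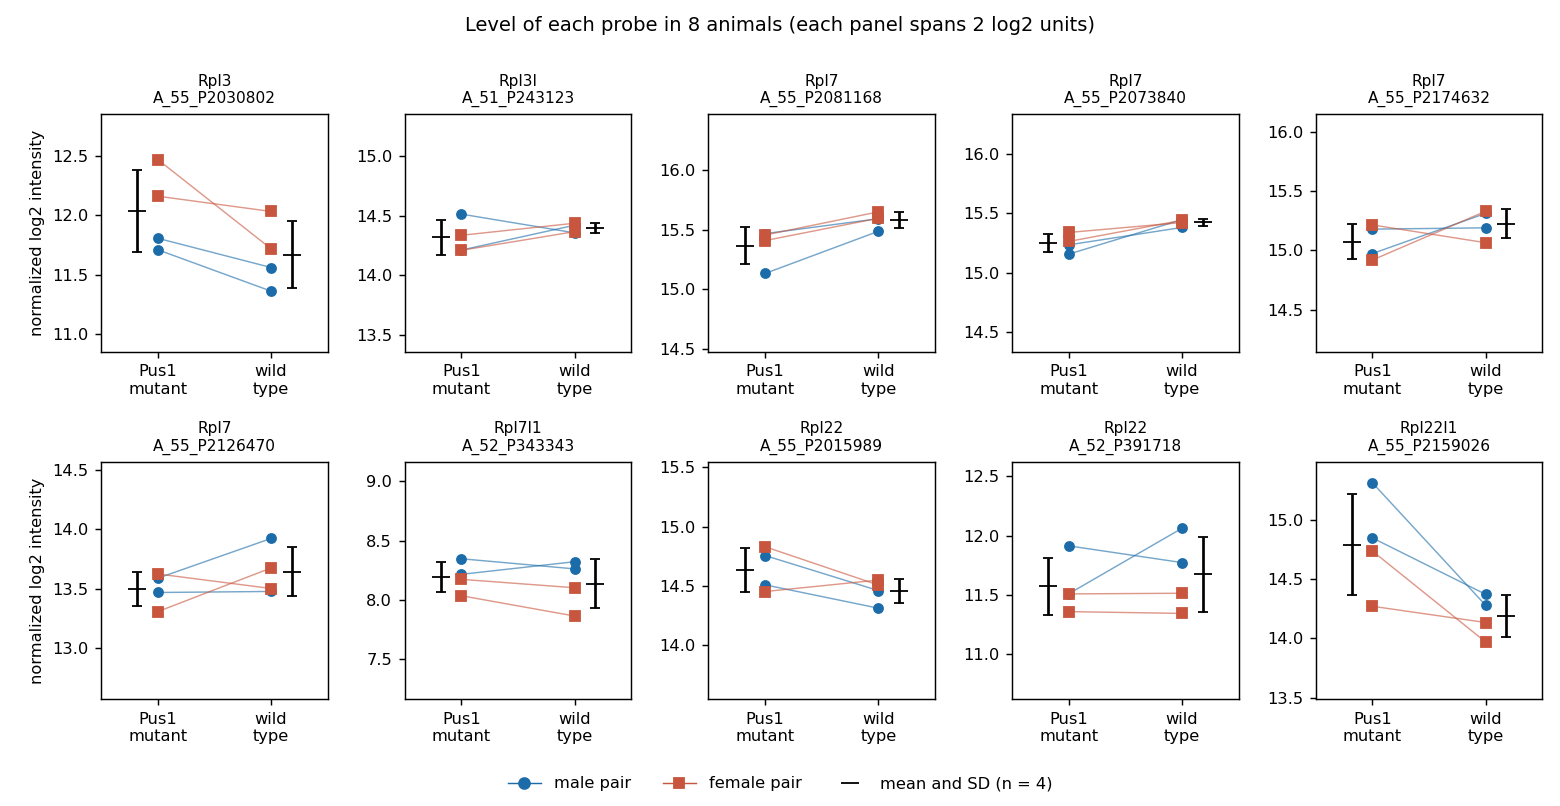
Normalized log2 intensity of the 10 probes in 4 Pus1 mutants (left in each panel) and 4 wild type animals (right), with a line joining the animals of 1 array and black bars for mean and SD. Rpl3 and Rpl22l1 slope downwards from mutant to wild type in all 4 pairs, whereas the first 2 Rpl7 probes slope upwards and the Rpl3l points of wild type animals lie between 14.36 and 14.44.

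Rpl22l1, on chromosome 3, had the highest ratio of the 6 genes. Its log2 intensity was 15.31, 14.85, 14.27 and 14.74 in mutants 1 to 4, against 14.28, 14.37, 14.13 and 13.97 in wild type animals 1 to 4. Mutant 3 lay among the wild type values and the other 3 mutants above all of them. Within each sex both mutants exceeded both wild type animals, a split whose share over all tested probes was likewise not counted. The log2 ratio was 1.03, 0.48, 0.14 and 0.77 in pairs 1 to 4, with a fitted value of 0.60 (SE 0.16, n = 4 pairs, 95% interval 0.20 to 1.00), a fold of 1.52. A higher ratio was found for 0.290% of the tested probes. Without pair 1 the fitted log2 ratio was 0.38, and without pair 3 it was 0.83.

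Rpl22, on chromosome 4, was read by 2 probes designed on different transcript accessions, and they did not give 1 answer. The first probe (A_55_P2015989) had log2 intensities of 14.76, 14.51, 14.45 and 14.83 in mutants 1 to 4, against 14.46, 14.31, 14.55 and 14.51 in wild type animals 1 to 4. Its fitted log2 ratio was 0.18 (SE 0.11, 95% interval −0.08 to 0.44), and the mutant was higher in 3 of 4 pairs. The second probe (A_52_P391718) had log2 intensities of 11.51, 11.91, 11.51 and 11.36 in mutants 1 to 4, against 12.06, 11.77, 11.52 and 11.35 in wild type animals 1 to 4. Its fitted log2 ratio was −0.10 (SE 0.12, 95% interval −0.40 to 0.20), and pair 1, at −0.55, stood below the others. Without pair 1 that probe gave 0.04, so its sign rested on 1 pair, and after removal of group mean and dye the 2 probes correlated at r = −0.70 over 8 animals.

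Against Rpl22l1 both Rpl22 probes were lower in every pair before the dye effect was removed. With it removed, the log2 ratio in pair 3 was 0.17 for the second Rpl22 probe and 0.16 for Rpl22l1. The difference of log2 ratios, Rpl22 minus Rpl22l1, was −0.74, −0.28, −0.23 and −0.44 in pairs 1 to 4 for the first probe (mean −0.42 ± 0.23, SD, n = 4 pairs). For the second probe it was −1.58, −0.33, −0.14 and −0.75 (mean −0.70 ± 0.64, SD, n = 4 pairs). Within genotype, the correlation of Rpl22, by its first probe, with Rpl22l1 did not pass the test (Pearson r = 0.34, exact permutation p = 0.660, rho = 0.17, exact permutation p = 0.767, n = 8 animals).

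Rpl7, on chromosome 1, was the paralogue that lay lowest in mutants, and all 4 of its probes, which share 1 target transcript, gave a negative fitted log2 ratio. The brightest probe (A_55_P2081168) had log2 intensities of 15.13, 15.47, 15.41 and 15.46 in mutants 1 to 4, against 15.49, 15.59, 15.60 and 15.65 in wild type animals 1 to 4. The next (A_55_P2073840) had 15.16, 15.24, 15.34 and 15.26 in mutants 1 to 4, against 15.45, 15.38, 15.42 and 15.44 in wild type animals 1 to 4. In both probes every mutant lay below every wild type animal, by a small distance. Their fitted log2 ratios were −0.22 (SE 0.09, 95% interval −0.44 to 0.01) and −0.17 (SE 0.09, 95% interval −0.41 to 0.06). The other 2 probes were lower in 3 of 4 pairs, with fitted values of −0.15 each, and their groups overlapped. In the brighter of these (A_55_P2174632) the log2 ratio was −0.34 and −0.41 in pairs 1 and 3, where the mutant carried Cy5, and −0.01 and 0.15 in pairs 2 and 4, where it carried Cy3. With group mean and dye removed, the 4 probes did not track each other, with pairwise r between −0.87 and 0.56 over 8 animals. Ribosomal protein genes have many processed pseudogenes, and whether these probes also bind their transcripts was not tested.

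Rpl7l1, on chromosome 17, was dim, with mutants and wild type animals intermixed. Its log2 intensity was 8.35, 8.22, 8.17 and 8.04 in mutants 1 to 4, against 8.26, 8.32, 8.10 and 7.86 in wild type animals 1 to 4. The fitted log2 ratio was 0.06 (SE 0.10, 95% interval −0.18 to 0.29). Rpl7 minus Rpl7l1 was −0.44, −0.02, −0.26 and −0.37 in pairs 1 to 4 by the brightest Rpl7 probe (mean −0.27 ± 0.18, SD, n = 4 pairs). By A_55_P2073840 it was also below 0 in every pair. By A_55_P2174632 and A_55_P2126470 it was above 0 in pair 2 (0.10 each). Once group mean and dye were removed, the brightest Rpl7 probe and Rpl7l1 had a negative correlation that did not pass the test (Pearson r = −0.63, exact permutation p = 0.108, rho = −0.67, exact permutation p = 0.113, n = 8 animals). Over the 3 paralogue pairs tested in this way, the smallest adjusted p was 0.323, and r was −0.47 without the 2 animals farthest from the median of Rpl7. The other Rpl7 probes were not tested against Rpl7l1, and A_55_P2126470 had r = −0.87 with the brightest, so the sign belongs to that probe only.

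Counted over probes, 2 of 10 were higher in the mutant of 4 of 4 pairs, and 4.83% of all tested probes were. Another 2 of 10 were lower in 4 of 4 pairs, both of Rpl7, against 5.10% of all tested probes. In the same 2 probes the groups did not overlap, with mutants below, against 0.732% of all tested probes. No probe of the 6 genes had all mutants above all wild type animals (0 of 10), against 0.541% of all tested probes. Since the genes were picked with these ratios known, the counts describe them only.

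**Figure D2:**
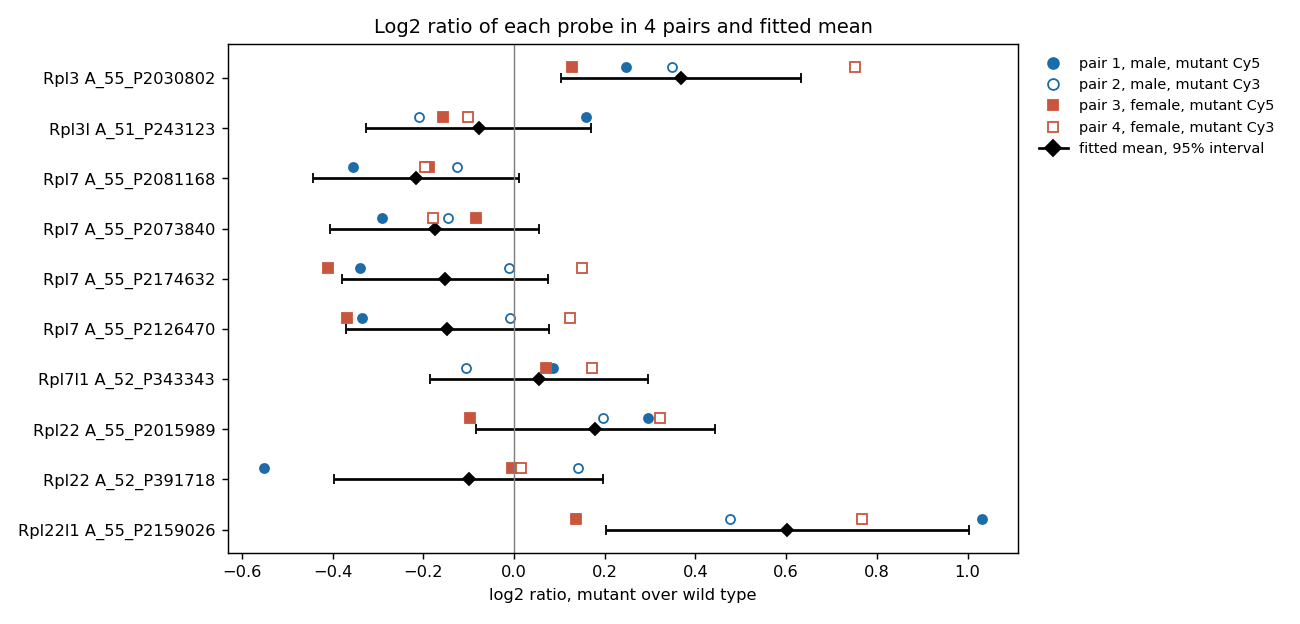
Log2 ratio of mutant over wild type for the 10 probes, with circles for the 2 male pairs, squares for the 2 female pairs, filled where the mutant carried Cy5, and black diamonds with bars for the fitted mean and its 95% interval. Rpl3 and Rpl22l1 have all 4 points right of 0, the Rpl7 fitted means lie left of 0, and the 2 Rpl22 probes lie on opposite sides. The genes were picked with these ratios known, so the intervals describe precision and are not a test.

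Sex was not used in the choice of genes and was tested across all probes (lmscFit, Benjamini-Hochberg adjustment), where 321 probes (1.39%) passed an adjusted p of 0.05 and 5310 (23.0%) had an unadjusted p under 0.05. Males were on arrays 1 and 2 and females on arrays 3 and 4, so differences of sex and of array cannot be told apart here. None of the 10 probes passed the adjusted threshold, and 3 of 10 had an unadjusted p under 0.05. Rpl3 averaged 12.1 ± 0.31 in females and 11.6 ± 0.19 in males (SD, n = 4 each). Its female minus male difference was 0.49 (SE 0.12), with an lmscFit unadjusted p of 0.00353 and an adjusted p of 0.0836, and the adjusted p ran from 0.0514 to 0.132 over the other settings with all pairs. With a pair left out it ran from 0.104 to 0.715, highest without pair 4. Females with the mutation had the highest Rpl3 and wild type males the lowest, while wild type females and mutant males lay between and overlapped.

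The muscle paralogue Rpl3l differed little by sex, at −0.04 for female minus male (SE 0.11, lmscFit adjusted p = 0.869). Rpl22l1 ran the other way from Rpl3, at 14.3 ± 0.33 in females and 14.7 ± 0.48 in males (SD, n = 4 each), a difference of −0.42 (SE 0.18, lmscFit adjusted p = 0.214). The second Rpl22 probe was also lower in females, by a log2 difference of −0.38 (SE 0.13, lmscFit adjusted p = 0.147), whereas the first gave 0.08 (SE 0.13, lmscFit adjusted p = 0.764). Rpl7l1 gave −0.24 (SE 0.11, lmscFit adjusted p = 0.242), and the 4 Rpl7 probes lay between −0.09 and 0.11.

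The effect of the mutation in females minus that in males was 0.14 for Rpl3 (SE 0.25) and −0.30 for Rpl22l1 (SE 0.33). It was −0.10 for Rpl3l (SE 0.24). None passed the test (limma adjusted p of 1.00 for each), and 0% of all tested probes did, with 2.19% at an unadjusted p under 0.05. With 2 pairs per sex the standard errors were at least as large as these effects.

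Set beside the other genes of the cytosolic ribosome, Rpl22l1 and Rpl3 stood at the upper end of the order and Rpl7 at the lower end. Each gene was ranked by its brightest probe among 81 genes, which were 78 listed ribosomal protein genes and the paralogues outside that list. Rpl22l1 was first, Rpl3 second, Rpl22 seventh, Rpl7l1 at rank 50, Rpl3l at rank 76 and Rpl7 last. Over 13 settings of normalization, filter, model and left-out pair, Rpl22l1 stayed at rank 1 and Rpl3 at rank 2. Rpl7, by its brightest probe, stayed at rank 81. The changes of filter and model leave the fitted ratios as they were. Ranks could therefore move only with normalization, the deposited table or a left-out pair. Rpl3l moved between rank 64 and rank 80.

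Of the 78 ribosomal protein genes, 60 had a fitted log2 ratio above 0 and 18 below, with a median of 0.08 that turned to −0.01 where arrays were centred on their median instead of by loess. All tested probes together had a median of 0.00, and of −0.06 with that centring. Without pair 1 the list median was 0.03, and without pair 3 it was 0.12. Of the 75 genes of the list other than Rpl3, Rpl7 and Rpl22, 58 lay above 0 and 17 below, and 0 passed the limma threshold in either direction or an unadjusted p under 0.05. The median of the list was 0.16, 0.08, −0.05 and 0.15 in pairs 1 to 4, so pair 3 ran against the others. The highest after Rpl3 were Rps27 at 0.27 (SE 0.11), a small subunit protein, and Rpl34 at 0.24 (SE 0.11), of the large subunit. At the low end, above Rpl7, stood Rplp0 at −0.19 (SE 0.10), the base of the ribosomal stalk, and Rpl10 at −0.14 (SE 0.11), which joins the large subunit late in assembly. By brightest probe, the 2 ends of this list were thus held by Rpl3, which was selected on its ratio, and Rpl7. The other Rpl7 probes, at −0.17, −0.15 and −0.15, lay above Rplp0.

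**Figure D3:**
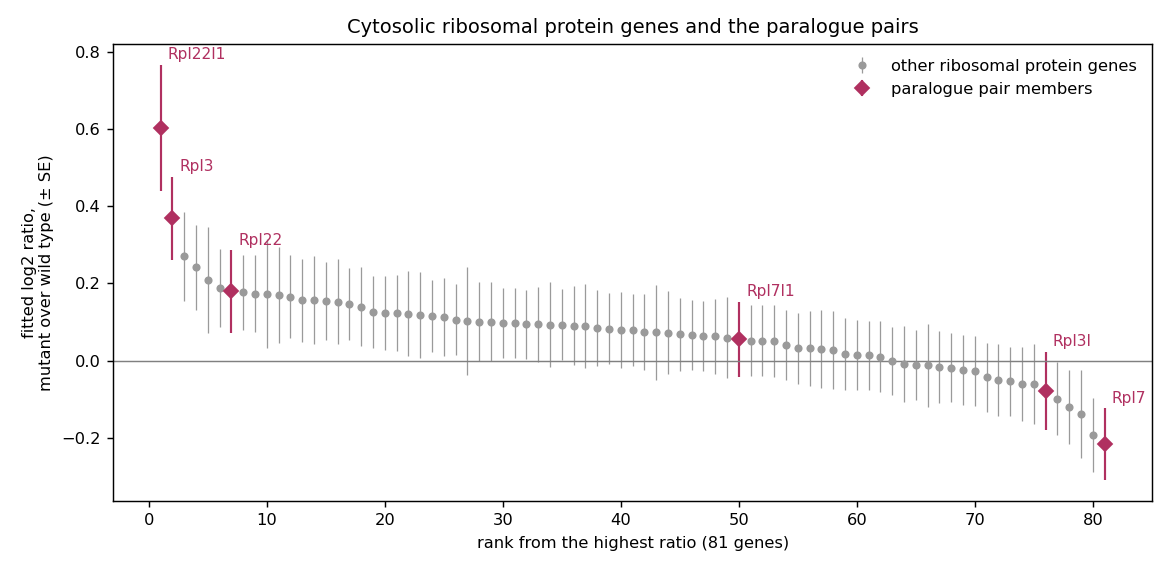
Fitted log2 ratio of mutant over wild type with its SE for 81 ribosomal protein genes, ordered from the highest, each by its brightest probe. The 6 paralogues are drawn as red diamonds, with Rpl22l1 and Rpl3 at ranks 1 and 2, Rpl22 at 7, Rpl7l1 at 50, Rpl3l at 76 and Rpl7 at 81.

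Other ribosomal protein genes that have a paralogue gave smaller ratios than Rpl22l1 and Rpl3. Of 10 listed, 8 were tested, with 5 above 0 and 3 below, a median of 0.06 and 0 past the limma threshold in either direction (1 at an unadjusted p under 0.05). That gene was Rps4l, a paralogue of Rps4x, at 0.29 (SE 0.10), higher in the mutant of 4 of 4 pairs, while Rps4x itself was at −0.01 (SE 0.09). Rps27 was at 0.27 and its paralogue Rps27l at 0.05 (SE 0.13). Rpl36a was at 0.06 (SE 0.11) and Rpl36al at −0.10 (SE 0.11). Rpl39 was at 0.21 (SE 0.14) and Rpl10 at −0.14, whereas their paralogues Rpl39l and Rpl10l were too dim to be tested.

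Factors that handle Rpl3 and assemble the large subunit lay on both sides of 0. Of 34 tested, 17 lay above 0 and 17 below (median 0.01), and 0 passed the limma threshold in either direction or an unadjusted p under 0.05. Mettl18, the methyltransferase known to modify a histidine of Rpl3 in human cells, was at 0.20 (SE 0.10), with pair values of 0.30, −0.01, 0.20 and 0.30. Pes1 at 0.22 (SE 0.19) and Wdr12 at 0.15 (SE 0.10), both of the PeBoW assembly complex, were the other high genes. Noc3l at −0.16 (SE 0.21), Sbds at −0.15 (SE 0.11), which helps release a factor that keeps the subunits apart, and Rrp1 at −0.14 (SE 0.09) were the lowest.

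Among 21 tested genes of RNA polymerase I and the nucleolus, 4 lay above 0 and 17 below (median −0.03), and 0 passed the limma threshold, with 1 at an unadjusted p under 0.05. That 1 was Polr1d, a subunit shared by RNA polymerases I and III, at 0.28 (SE 0.11), with pair values of 0.12, 0.58, −0.25 and 0.68. Nhp2 at 0.10 (SE 0.10), a protein of pseudouridine guide particles, and Myc at 0.07 (SE 0.10) followed. Npm1 at −0.13 (SE 0.15), Polr1b at −0.13 (SE 0.10) and Fbl at −0.11 (SE 0.09), the methyltransferase of box C/D particles, were lowest. Of 27 cytosolic translation factors, 18 lay above 0 and 9 below (median 0.04), and 0 passed the limma threshold or an unadjusted p under 0.05. The elongation factor of muscle Eef1a2 at 0.16 (SE 0.12) and the helicase Eif4a2 at 0.15 (SE 0.09) were highest, with Eif2s1 at 0.14 (SE 0.12). Eif4e at −0.18 (SE 0.14), Eif4a1 at −0.17 (SE 0.09) and Eef2 at −0.09 (SE 0.13) were lowest.

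Markers of fibre types and other cells also differed between the animals of a pair. The 10 markers of slow and oxidative fibres all had a fitted log2 ratio below 0 (median −1.25). Of these, 0 passed the limma threshold and 3 had an unadjusted limma p under 0.05, against 3.35% of all tested probes. The 3 were Mb, Myl3 and Myh2, named after their values were seen. Their median was −2.56, 1.14, −1.49 and −2.73 in pairs 1 to 4, and their mean level ran from 9.19 to 11.4 in mutants and from 9.86 to 12.9 in wild type animals. The 8 erythroid markers had a median of 0.61, with 0.78, −0.83, 0.97 and 1.48 in pairs 1 to 4. Their mean level ran from 10.73 to 13.27 in mutants and from 10.2 to 11.8 in wild type animals. The 8 fibroblast markers had a median of 0.36, with 1.15, −0.21, 0.19 and 0.57 in pairs 1 to 4, and mean levels of 10.3 to 11.3 in mutants and 10.2 to 10.9 in wild type animals. The 5 adipocyte markers had a median of 0.26, with 1.46, −1.08, 0.43 and 0.13 in pairs 1 to 4, and mean levels of 8.86 to 9.89 in mutants and 8.58 to 9.60 in wild type animals. The 6 macrophage and leukocyte markers had a median of 0.28, with 0.88, −0.28, −0.14 and 0.50 in pairs 1 to 4, and mean levels of 7.69 to 8.51 in mutants and 7.56 to 8.05 in wild type animals. Pair 2 had the opposite sign from the other pairs in the slow and oxidative fibre, erythroid, fibroblast and adipocyte lists. The macrophage list was below 0 in pairs 2 and 3. The lists for regeneration, endothelium and nerve had medians of 0.03, −0.01 and 0.05. At an unadjusted limma p under 0.05 were 3 of 8 fibroblast, 1 of 5 adipocyte and 1 of 4 nerve markers. The erythroid, macrophage, regeneration and endothelium lists held 0, and 0 markers of any of these lists passed the limma threshold. In pair 2 the log2 ratio was 0.35 for Rpl3 and 0.48 for Rpl22l1, and without pair 2 the fitted value of Rpl3 was 0.47. The part of these markers in the values of Rpl3 and Rpl22l1 was not tested. The 10 fast fibre markers, which define this tissue, were at a mean level of 17.0 to 17.4 in mutants and 16.8 to 17.3 in wild type animals, with 8 above 0 and 2 below (median log2 ratio 0.06). In pairs 1 to 4 the median of these fast fibre markers was −0.08, −0.28, 0.70 and −0.23. None of the fast fibre markers passed the limma threshold, and 1 of 10 had an unadjusted limma p under 0.05, against 3.35% of all tested probes. This was Myh1, the myosin of type IIx fibres, at −1.29 (SE 0.25), lower in 4 of 4 pairs and named after its value was seen.

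**Figure D4:**
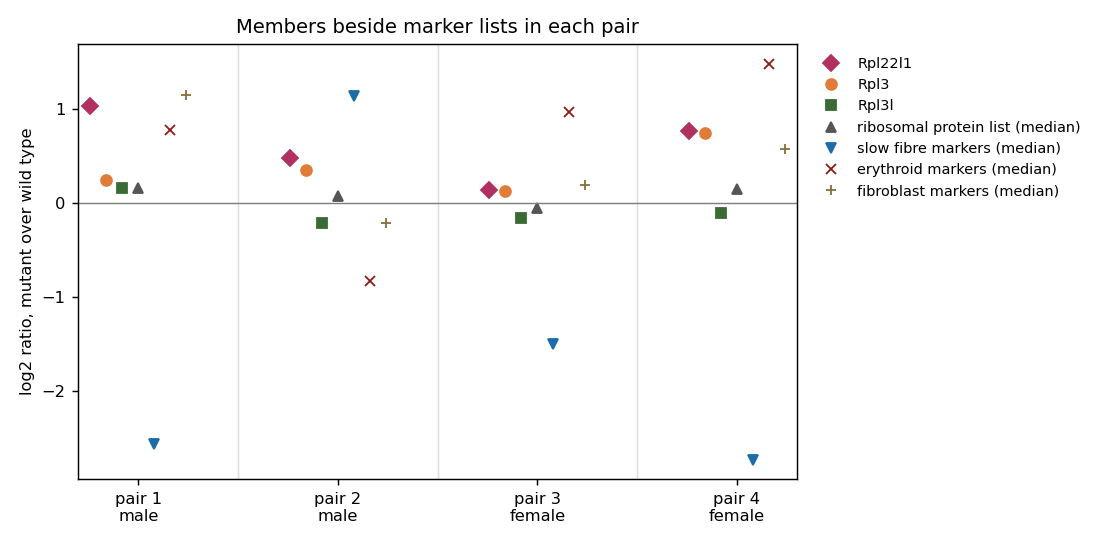
Log2 ratio of mutant over wild type in each pair for Rpl22l1, Rpl3 and Rpl3l and for the medians of the ribosomal protein list and 3 marker lists. In pair 2 the medians of the slow and oxidative fibre list (labelled slow fibre), the erythroid list and the fibroblast list change side (1.14, −0.83 and −0.21). Rpl3 and Rpl22l1 lie above 0 in every pair.

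The genes whose level over the 8 animals was most like that of Rpl3 were Acot9, Dpysl3, H2ac4, Snrpd1 and Tceal9, by Pearson r of dye-centred log2 intensity over 11892 genes. Acot9 is a mitochondrial acyl-CoA thioesterase (r = 0.989), Dpysl3 a cytoskeletal protein of the collapsin response mediator family (r = 0.987), H2ac4 a histone H2A (r = 0.985) and Snrpd1 a core protein of spliceosomal particles (r = 0.984). Tceal9 was at r = 0.982. All 5 were higher in mutants, with fitted log2 ratios between 0.15 and 0.43. For Rpl3l the 5 were Mcat, of mitochondrial fatty acid synthesis (r = 0.985), Pfkfb1, which sets fructose 2,6-bisphosphate (r = 0.952), Rmdn1 (r = 0.948), Dcun1d5, of the neddylation pathway (r = 0.944), and the thioesterase Acot13 (r = 0.943). Their fitted log2 ratios ran from −0.16 to −0.04. Among the paralogues, Rpl3 was most like Rpl22 by its first probe (r = 0.67) and had r = 0.11 with Rpl22l1 and −0.24 with Rpl3l. These are descriptions over 8 animals that share arrays, sex and genotype, and each set of 5 was the best among all those genes. The genotype difference was left in, so the shared direction of the ratios in each set follows largely from how its genes were picked.

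Genes beside Rpl3 and Rpl3l on their chromosomes lay on both sides of 0. Of the 50 nearest tested genes around Rpl3, 25 were above 0 and 25 below (median −0.01), and 1 (2.00%) had an unadjusted limma p under 0.01, against 0.684% of all tested probes. This was Gcat, a mitochondrial enzyme of threonine breakdown, at −0.46 (SE 0.10), lower in 4 of 4 pairs. At an unadjusted limma p under 0.05 there were 4 of 50 (8%), against 3.35% of all tested probes. Named after their values were seen, the other 3 were 8430426J06Rik at 0.38 (SE 0.13), St13 at 0.32 (SE 0.11) and Tob2 at −0.39 (SE 0.13). St13 was higher and Tob2 lower in the mutant of 4 of 4 pairs. 8430426J06Rik was at 1.33, −0.62, 0.96 and −0.14 in pairs 1 to 4, so above 0 only where the mutant carried Cy5. Of the 50 around Rpl3l, 24 were above 0 and 26 below (median 0.00), and 0 had an unadjusted limma p under 0.01. At an unadjusted p under 0.05 there was 1 of 50 (2.00%), Tmem204 at −0.31 (SE 0.12).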

How the data were processed

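Spot and background brightness were deposited by the authors as linear intensity values per spot, made with Agilent Feature Extraction 10.7.3.1 per the file headers, which name the build mm9. The same deposited files hold other values, flags for spots that are well above background, saturated or outliers. The authors' deposited table of the whole series holds log2 values centred per probe, whose scale and direction were taken from their match to the scanner ratios (r of 0.992 to 0.998 over 23098 probes). Probes were named by RefSeq accession through a gene table of GRCm38.p6. 27656 of 55681 probes had 1 symbol and 28025 none. No coordinates were moved between builds.

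Median spot and background intensities were corrected with normexp (offset 50), normalized by loess within arrays and by Aquantile between channels, without control spots (limma 3.58.1, R 4.3.3). Ratios were fitted with a dye term over the 4 arrays. Sex was fitted with lmscFit (intraspot correlation 0.188). The block was the array, which same-numbered animals shared, and their deviations from group and dye means correlated at 0.76, 0.57, 0.28 and 0.79. Sex was not removed, and removing these means can itself raise such a correlation, so the values do not measure the array effect alone. p-values were adjusted over 23098 probes and compare animals of these 4 arrays, whose number limits the precision. In simulated data, 6 of 50 probes changed by 0.5 log2 units and 50 of 50 changed by 1 were called for mutant over wild type. The simulation held 50 changed probes at each of 0.5, 1, 1.5 and 2 log2 units, which eases the adjustment for all of them. Its spread was drawn from a normal distribution with the moderated variances. For both reasons these shares need not hold for the measured data. There Pus1, at −1.46 (SE 0.10), did not pass (limma adjusted p = 0.0786).

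Members and gene lists were chosen with earlier results of these data known. Besides all member probes, genes named are the 5 most like Rpl3 and Rpl3l, the other paralogues, the 3 highest and 3 lowest of each list, neighbours at an unadjusted p under 0.01, and Pus1. Exact permutation tests of correlation shuffled animals within genotype and are two-sided. The shuffles did not keep array or sex together, so these tests treat animals as independent.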

Additional observations from a re-analysis of the deposited data

How the results depend on the processing

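Rpl3 and Rpl22l1 were above 0 in mutants and all 4 Rpl7 probes below 0 under each of the 12 alternatives (background, centring, filter, model, deposited table, each pair left out). Without the filter, the dye term or the replicate block, or with lmscFit, the fitted ratios could not move from those of the main fit. Leaving out a pair gave 0.27 to 0.47 for Rpl3, 0.38 to 0.83 for Rpl22l1 and −0.16 to 0.00 for Rpl3l. It gave −0.01 to 0.12 for Rpl7l1, and 0.08 to 0.28 and −0.24 to 0.04 for the first and second Rpl22 probe. Median centring in place of loess moved the 2 brightest Rpl7 probes to −0.32 and −0.27, the 60S assembly list to −0.0749 and the translation factor list to −0.0446, with the median of all probes at −0.06.

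The count past the threshold for mutant over wild type was 0. It was 23 with median centring, 5 with no filter on dim probes, 2 with no dye term and 4 with lmscFit, and 0 to 245 with a pair left out, highest without pair 3. The pairing was removed in the fit with no replicate block, which gave 3 probes for mutant over wild type and 843 for female over male, against 321. The count for sex was 547 with no filter and 16 to 260 with a pair left out, lowest without pair 4. The interaction gave 22 with median centring and 38 with no filter. The neighbour counts and the lists other than ribosomal proteins were put through these alternatives after seeing the data. The Rpl3 neighbour count was 0 with processed signals and the deposited table and 2 with median centring and with no filter. Leaving out a pair gave 0 to 5 for Rpl3 neighbours and 0 to 4 for Rpl3l neighbours, highest without pair 3. The cause of these shifts was not tested.

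The female minus male value changed sign for small effects: with a pair left out it ran from −0.0975 to 0.0213 for Rpl3l, from −0.00207 to 0.218 for the brightest Rpl7 probe, from −0.229 to 0.0544 for the dimmest and from −0.0234 to 0.174 for the first Rpl22 probe, which was −0.00682 with the deposited table. The correlation of Rpl3 with Rpl3l was −0.0127 with no background correction, −0.14 with the deposited table, −0.14 with no dye centring and −0.44 without the 2 farthest animals. That of Rpl22 with Rpl22l1 was 0.70 with the deposited table (exact permutation adjusted p = 0.234) and 0.14 without the 2 farthest animals. Left-out fits of sex kept the correlation of all arrays. With 4 pairs, changes of 0.5 log2 units were mostly missed in simulation. In the measured data Pus1, at −1.46, did not pass the limma threshold, and no probe of the 6 genes was limited by background.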
